A study of Rattus norvegicus with 12 samples.

Results

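The BCL2 family sets whether a cell that has lost its attachment goes on to permeabilise its mitochondria. Pro-survival members (Bcl2, Bcl2l1, Mcl1) hold the pore-forming effectors such as Bax in check. BH3-only members (Bcl2l11 or Bim, Bbc3 or Puma, Pmaip1 or Noxa, Bmf) bind the pro-survival proteins and free or activate the effectors, and Bim and Bmf in particular are known for their part in anoikis, the death of cells deprived of a substrate. Bnip3 and Bnip3l (Nix) carry a more distant BH3-like stretch, sit in the outer mitochondrial membrane and are best known as receptors that mark mitochondria for removal by autophagy.

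These 10 genes were followed in F111 cells, an established fibroblast line from the Fischer rat, after 16 h in suspension on agarose (NA16) and after 16 h attached to plastic (A16). Both states were grown in the same serum-containing medium, and each was measured on 3 Affymetrix rat arrays, namely biological replicate 1, biological replicate 2 and technical replicate 2. By the study's viability assay most F111 cells were no longer viable after this time in suspension. The name NA16 is given there to the survivors, but no step that would separate them before RNA extraction is described in the sources used here, so a change in which cells were present and a change of RNA within cells cannot be told apart in these bulk samples. The members were every probe set whose platform annotation gave a listed gene as its single symbol, which came to 14 probe sets of 8 genes among 31042 probe sets tested. The probe set that carries Bax carries a second symbol as well and was not used, and Pmaip1 was not analysed here.

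Values are log2 of the deposited RMA intensity, on which a difference of 1 is a 2-fold change, and each probe set is kept apart because probe sets of a gene match different stretches of its transcripts. Means ± SD are over n = 2 replicates a state, technical replicate 2 having been averaged with biological replicate 1. A probe set was called when its adjusted p (limma, Benjamini-Hochberg over all 31042 probe sets) lay below 0.05. By that rule 27.5% of all probe sets were called, 14.3% higher and 13.2% lower in NA16 than in A16 cells. The 3 NA16 arrays lay wholly above or below the 3 A16 arrays for 44.3% of probe sets, above for 21.2% and below for 23.1%.

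The array medians of RMA intensity lay between 152 and 157. Fibroblast markers were bright in both states, with summed intensities of 93584 to 122856 in NA16 and 110715 to 128008 in A16 arrays over 9 genes, of which Pdgfrb was called higher. The 7 macrophage markers summed to 1885 to 2188 in NA16 and 1850 to 2127 in A16 arrays, with Cd68 and Lyz2 called higher. The sums over 4 muscle and adipocyte markers (2722 to 4477 in NA16, 846 to 945 in A16) and 5 epithelial markers (2632 to 3087 in NA16, 1203 to 1386 in A16) were higher in NA16, with Des, Krt8 and Epcam as their called genes. Most of each sum came from 1 gene, Des (mean log2 11.81 in NA16 and 9.33 in A16) or Krt8 (11.38 and 10.12). Myog, Adipoq and Plin1 were not called, nor were Cdh1, Krt18 and Krt19. Among 3 endothelial markers the sums were 231 to 238 in NA16 and 195 to 229 in A16 arrays, and Pecam1 was called higher. The control probe sets for beta-actin gave a signal that was 0.87 to 0.93 brighter (log2) at the 3′ than at the 5′ end in NA16 and 0.37 to 0.44 brighter in A16 arrays. For GAPDH that difference was -0.03 to 0.06 in NA16 and -0.07 to 0.00 in A16 arrays. For hexokinase it was 0.77 to 0.80 in NA16 and 0.76 to 0.97 in A16 arrays, and so was not larger in NA16. The part of these differences in the results below was not tested.

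Most probe sets of the 5 listed pro-death genes measured were called higher in suspension, and no probe set of the listed pro-survival genes was. Bcl2l11 and Bnip3l count here with several probe sets each. Of further pro-death family genes outside this list, Bad was called lower, and Bak1, Bid, Bik, Hrk and Bok were not called. The pro-survival gene Bcl2l2, also outside it, just missed a call as higher with its brightest probe set (log2 change 0.46, limma adjusted p = 0.0517). Its other probe set was at -0.13. Of the 8 probe sets of BH3-only genes and of the BNIP3 pair, 6 were called higher and 0 lower (limma), against a background of 14.3% called higher, and at an unadjusted p below 0.05 the counts were 8 and 0, where 18.5% of all probe sets were higher and 17.7% lower by that rule. Of the 6 pro-survival probe sets, 0 were called higher and 1 lower (limma), with 1 and 1 at an unadjusted p below 0.05, and these shares of 6 probe sets are near the background. The median log2 change was 1.24 over the pro-death and -0.31 over the pro-survival probe sets, beside -0.02 over all probe sets. Over the listed genes, pro-death changes ranged between 0.46 and 2.78 and pro-survival changes between -1.10 and 0.28. These ranges did not overlap. Without A16 replicate 2 they did, with Mcl1 1370141_at at 0.47 and Bcl2l11 1370787_at at 0.31. Calls of at least 2-fold numbered 5 members higher and 0 lower, where 10.2% of all probe sets passed this rule, 5.37% higher and 4.86% lower. In the PLIER columns of the same arrays the medians were 1.32 and -0.29, with 6 pro-death probe sets called higher and 0 pro-survival probe sets called in either direction, where 14.2% of all probe sets were called higher and 12.4% lower.

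**Figure D1:**
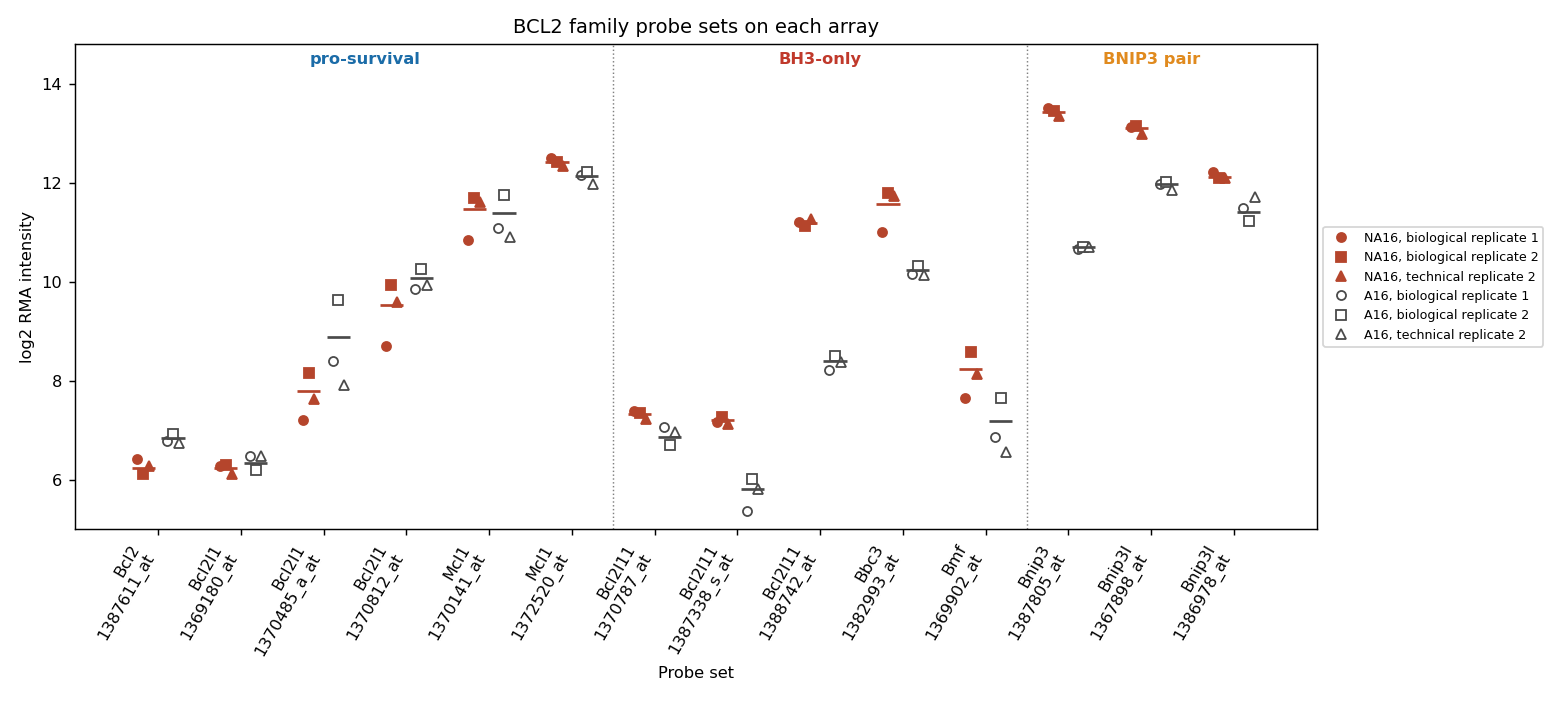
Log2 RMA intensity (y axis) of the 14 BCL2 family probe sets (x axis, grouped by role) on each array, with NA16 as filled and A16 as open symbols, symbol shape for the array and short lines for the mean of n = 2 replicates. All 8 pro-death probe sets lie higher on every NA16 array than on any A16 array, where 21.2% of all probe sets do. Of the 6 pro-survival probe sets 4 overlap between the states, as do 17278 of all 31042 probe sets.

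Bcl2l11, which encodes Bim, a BH3-only protein able to bind every pro-survival member, had 1 probe set whose change was about as large as that of Bnip3. Its brightest probe set, 1388742_at, read 11.20, 11.14 and 11.26 on the NA16 arrays (biological replicates 1 and 2, then technical replicate 2), against 8.22, 8.50 and 8.38 on the A16 arrays. All NA16 arrays were thus more than 2 log2 units above all A16 arrays. The means were 11.18 ± 0.07 in NA16 and 8.40 ± 0.14 in A16 cells (SD, n = 2 each), a 6.89-fold rise with a log2 change of 2.78 (SE 0.12, adjusted p = 0.000307).

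The other Bcl2l11 probe sets moved the same way by less. Probe set 1387338_s_at, whose name marks it as one that can match several transcripts, read 7.18, 7.26 and 7.12 on the NA16 arrays, against 5.38, 6.02 and 5.82 on the A16 arrays. This was a 2.64-fold rise (log2 change 1.40, 95% confidence interval 1.00 to 1.80, adjusted p = 0.00228). Probe set 1370787_at read 7.39, 7.34 and 7.23 on the NA16 arrays, against 7.07, 6.70 and 6.97 on the A16 arrays. Its arrays did not overlap either, but with a log2 change of 0.46 (interval 0.13 to 0.80) it missed the threshold (adjusted p = 0.0547). Without A16 replicate 1 it was called at 0.62 (adjusted p = 0.0244, alternatives 0.0144 to 0.277). The interval of the brightest probe set, 2.49 to 3.08, overlapped neither of the others, so a single fold change does not describe the gene on this array. Averaged over its probe sets Bcl2l11 had a log2 change of 1.55.

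The Bim promoter is a known target of FOXO factors, which bind the forkhead core GTAAACA, and for that reason the stretch around its start is shown. It runs from 250 bases before to 50 bases after the RefSeq start site (GRCr8, chr3:135819792-135820091, plus strand), with the 1 match to GTAAACA, searched on both strands, in capitals.
Bcl2l11 promoter: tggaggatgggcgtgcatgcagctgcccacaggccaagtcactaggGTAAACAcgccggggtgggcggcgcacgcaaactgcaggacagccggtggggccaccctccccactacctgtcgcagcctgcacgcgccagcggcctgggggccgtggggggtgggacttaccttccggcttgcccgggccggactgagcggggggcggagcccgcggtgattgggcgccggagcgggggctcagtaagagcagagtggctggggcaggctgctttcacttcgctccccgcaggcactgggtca
The match begins 204 bases before the start site. Of all 33469 RefSeq promoter windows of this length, 3.78% held the same letters. Of the 6 member genes with a window in the reference (9 windows), Bcl2l11 was the only gene with this match. It is a match of letters, and binding was not measured.

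Bbc3 encodes Puma, a BH3-only protein that binds all the main pro-survival members. Its probe set 1382993_at read 11.01, 11.79 and 11.73 on the NA16 arrays, against 10.15, 10.31 and 10.13 on the A16 arrays. The groups did not overlap, although biological replicate 1 of NA16 stood lower than the other NA16 arrays. Mean levels were 11.58 ± 0.30 in NA16 and 10.23 ± 0.12 in A16 cells (SD, n = 2 each), a 2.55-fold rise (log2 change 1.35, SE 0.17, adjusted p = 0.00283).

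Bmf encodes the BH3-only protein that is held at the actin cytoskeleton through a dynein light chain and is released when cells detach. Probe set 1369902_at read 7.66, 8.58 and 8.13 on the NA16 arrays, against 6.86, 7.65 and 6.57 on the A16 arrays. The lowest NA16 array and the highest A16 array were nearly level, and the spread within each state was wide. The log2 change was 1.06 (2.09-fold, SE 0.36) and was not called (adjusted p = 0.0820). It was called without A16 replicate 2 (1.53, adjusted p = 0.0239) and without NA16 replicate 1 (1.40, adjusted p = 0.0441). It was 0.59 (adjusted p = 0.241) without A16 replicate 1, and over all alternatives the adjusted p ranged from 0.000165 to 0.422.

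Bnip3 had the smallest standard error of the family, which comes from variances moderated over all probe sets. Probe set 1387805_at read 13.51, 13.44 and 13.35 on the NA16 arrays, against 10.66, 10.71 and 10.70 on the A16 arrays. All NA16 arrays were well above all A16 arrays. The NA16 arrays spanned 0.17 and the A16 arrays only 0.05, and the SDs below follow the averaging of technical replicate 2 with biological replicate 1. Mean levels were 13.44 ± 0.01 in NA16 and 10.69 ± 0.02 in A16 cells (SD, n = 2 each), a 6.69-fold rise (log2 change 2.74, SE 0.10, adjusted p = 0.000248).

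Bnip3l, its paralog, also rose by both of its probe sets. Probe set 1367898_at read 13.11, 13.15 and 12.98 on the NA16 arrays, against 11.98, 12.02 and 11.85 on the A16 arrays, a 2.19-fold rise (log2 change 1.13, SE 0.11, adjusted p = 0.00128). Probe set 1386978_at read 12.21, 12.09 and 12.09 on the NA16 arrays, against 11.48, 11.23 and 11.72 on the A16 arrays, a 1.63-fold rise (log2 change 0.71, SE 0.15, adjusted p = 0.0176). The states did not overlap for either probe set. The call of the second was lost without NA16 replicate 1 (adjusted p = 0.0746) or NA16 replicate 2 (adjusted p = 0.0592), with a range of 0.00167 to 0.216 over the alternatives. The interval of the Bnip3 change, 2.49 to 2.99, lay above those of both Bnip3l probe sets, 0.87 to 1.40 and 0.34 to 1.07.

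Bnip3 is a classic target of the hypoxia-inducible factor, which binds the core ACGTG, and its promoter is shown for that core (GRCr8, chr1:203154913-203155212, minus strand, from 250 bases before to 50 bases after the RefSeq start). The capitals mark ACGTG and its complement CACGT, which overlap in a palindrome that is also an E-box.
Bnip3 promoter: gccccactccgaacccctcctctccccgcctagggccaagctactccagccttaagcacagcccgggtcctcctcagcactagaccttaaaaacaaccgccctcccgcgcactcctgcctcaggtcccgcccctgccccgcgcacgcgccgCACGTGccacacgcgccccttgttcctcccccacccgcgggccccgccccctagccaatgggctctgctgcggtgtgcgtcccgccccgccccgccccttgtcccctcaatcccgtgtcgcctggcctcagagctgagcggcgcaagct
The match begins 99 bases before the start site. The core ACGTG stood on either strand in 19.3% of all 33469 windows. It was also found in the window of Bcl2, which was lower in NA16, and in 1 of 4 windows of Bcl2l1, and these letters were not in the windows of Bcl2l11, Bmf and Mcl1. For this factor only ACGTG and CACGT were searched. Other forms of a binding site were not searched, and binding was not measured.

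Bcl2, the founding pro-survival member, was the only member called lower. Probe set 1387611_at read 6.43, 6.12 and 6.29 on the NA16 arrays, against 6.78, 6.93 and 6.75 on the A16 arrays. All NA16 arrays were below all A16 arrays, by a small margin and at a dim level (percentile 38.6 of all probe sets by mean intensity). Mean levels were 6.24 ± 0.17 in NA16 and 6.85 ± 0.12 in A16 cells (SD, n = 2 each), a 1.52-fold fall (log2 change -0.61, SE 0.13, adjusted p = 0.0194). The call was lost in the PLIER columns (log2 change -0.33, adjusted p = 0.181), with both technical arrays left out (adjusted p = 0.0544), and without NA16 replicate 2 (adjusted p = 0.115) or A16 replicate 2 (adjusted p = 0.0763), and the lowest and highest adjusted p of all alternatives were 0.00466 and 0.197.

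Mcl1 encodes a short-lived pro-survival protein that is the main binding partner of Noxa. Its brighter probe set, 1372520_at, read 12.50, 12.41 and 12.34 on the NA16 arrays, against 12.15, 12.21 and 11.98 on the A16 arrays. The NA16 arrays were slightly but wholly above the A16 arrays. The log2 change of 0.28 (interval 0.01 to 0.55) was not called (adjusted p = 0.128). Probe set 1370141_at read 10.85, 11.70 and 11.62 on the NA16 arrays, against 11.09, 11.76 and 10.91 on the A16 arrays, and these overlapped fully. Its log2 change was 0.09 (interval -0.61 to 0.78, adjusted p = 0.887), an interval that leaves room for a change of either sign.

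Bcl2l1 encodes Bcl-xL and, by alternative splicing, the shorter pro-death form Bcl-xS. None of its 3 probe sets was called, and on all of them the states overlapped. Probe set 1370485_a_at, whose name marks it as matching alternative transcripts of the gene, read 7.20, 8.17 and 7.63 on the NA16 arrays, against 8.39, 9.63 and 7.92 on the A16 arrays. Its log2 change of -1.10 (interval -2.33 to 0.13, adjusted p = 0.182) varied with the replicates used. It was -0.36 (adjusted p = 0.517) without A16 replicate 2, which stood highest, and -1.84 (adjusted p = 0.0169) without A16 replicate 1, with alternatives between 0.00125 (the fit with replicate number as a block) and 0.538. Probe set 1370812_at read 8.70, 9.94 and 9.59 on the NA16 arrays, against 9.84, 10.25 and 9.94 on the A16 arrays, with a log2 change of -0.53 (interval -1.22 to 0.15, adjusted p = 0.242). Without NA16 replicate 2 it was -0.93 and called (adjusted p = 0.0271, alternatives 0.0111 to 0.794). The dim probe set 1369180_at stayed between 6.11 and 6.29 in NA16 and between 6.20 and 6.48 in A16 arrays, with a log2 change of -0.09 (interval -0.42 to 0.24, adjusted p = 0.717).

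**Figure D2:**
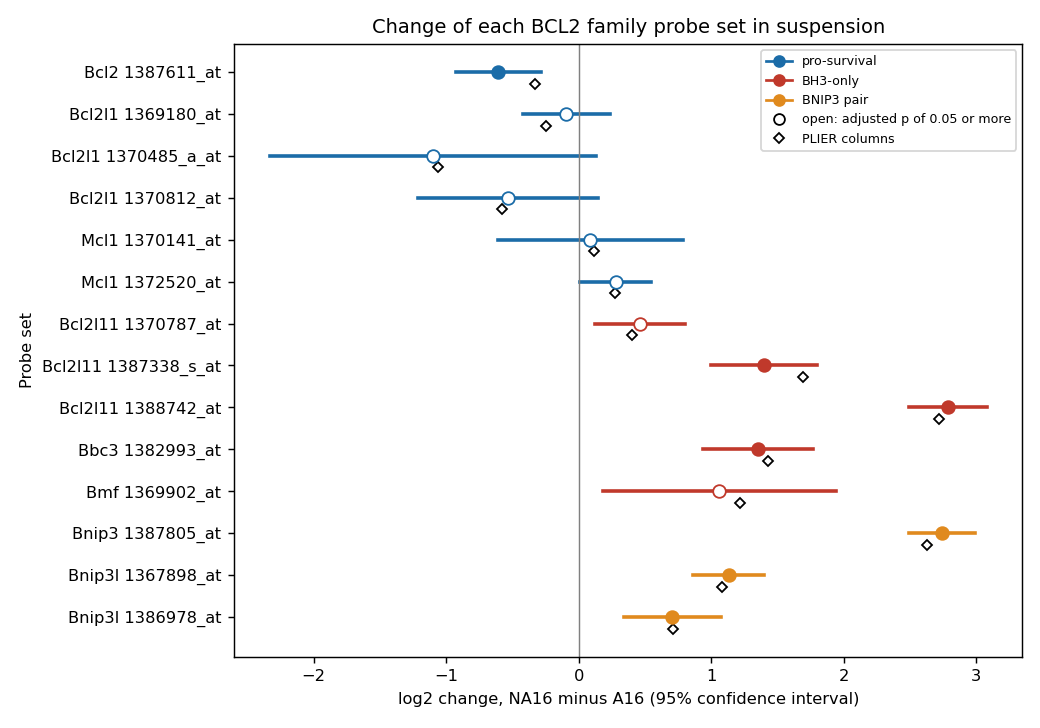
Log2 change of NA16 minus A16 (x axis) for each probe set (y axis), with the limma 95% confidence interval as a bar, filled circles for an adjusted p below 0.05 and diamonds for the PLIER columns. Pro-death probe sets lie between 0.46 and 2.78 and pro-survival probe sets between -1.10 and 0.28, and the interval is widest for Bcl2l1 1370485_a_at.

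**Figure D3:**
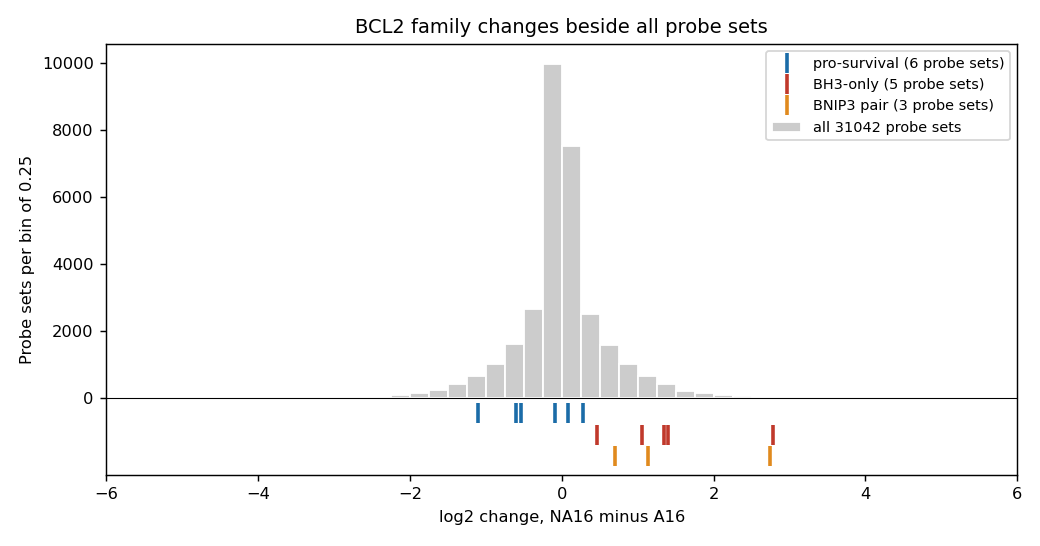
Number of probe sets (y axis) by log2 change of NA16 minus A16 (x axis, bins of 0.25) for all 31042 probe sets, with the 14 BCL2 family probe sets as ticks in 3 rows by role. The ticks of Bcl2l11 1388742_at (2.78) and Bnip3 (2.74) stand far out in the upper tail.

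Some members varied between arrays of a state together with a control. The hexokinase control probe set at the 3′ end, which the array maker placed there to gauge sample quality, read 8.85, 10.15 and 9.55 on the NA16 arrays, against 8.80, 9.82 and 8.44 on the A16 arrays. Bcl2l1 1370485_a_at, Mcl1 1370141_at, Bbc3 and Bmf had the arrays in that same order in both states. These were 4 of 14 member probe sets (28.6%), and 4.40% of all probe sets did so. Their ranges over the 3 arrays were 0.97, 0.85, 0.78 and 0.93 in NA16, where the median range of all probe sets was 0.23, and 1.71, 0.85, 0.18 and 1.08 in A16, where it was again 0.23. Bnip3 and the brightest Bcl2l11 probe set spanned 0.17 and 0.13 in NA16 and 0.05 and 0.28 in A16 arrays. What these members and the control share was not tested.

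**Figure D4:**
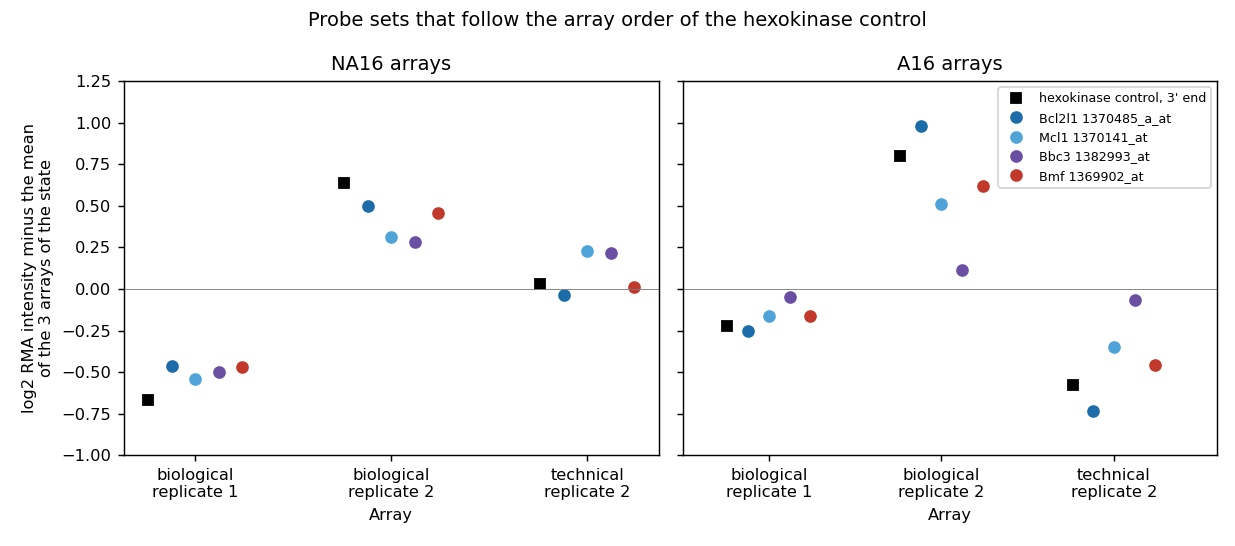
Log2 RMA intensity minus the mean of the 3 arrays of the state (y axis) on each NA16 array and each A16 array (x axis, left and right panel), for the hexokinase 3′ control and the 4 member probe sets with the same array order in both states. Biological replicate 2 is highest in both states, whereas the lowest array is biological replicate 1 in NA16 and technical replicate 2 in A16.

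The genes nearest in pattern to the members were found by the mean absolute difference of array-centred log2 profiles over the 6 arrays, which share 2 states and so mainly match the size of the change. For Bcl2l11 1388742_at they were Klhl24 (0.082), Tcp11l2 (0.086) and Bnip3 itself (0.089). For Bnip3 they were Tcp11l2 (0.064), Proser2 (0.075) and Arhgef16 (0.080). For Bcl2 they were Dnajb6 (0.035), Ncs1 (0.035) and Dnttip2 (0.037). The log2 changes of the first 3 were 2.89, 2.82 and 2.74, beside 2.78 for Bcl2l11.

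Each gene is represented below by its brightest probe set. In a separate fit on 1 such probe set per gene, 3115 of 14217 genes were called higher and 2409 lower. The list counts below come from the fit on all 31042 probe sets, where 14.3% were called higher and 13.2% lower. Of 12 further genes of the BCL2 family measured, 0 were called higher and 1, Bad, lower (limma), with 1 and 2 at an unadjusted p below 0.05. Bad, a BH3-only protein controlled by growth factor phosphorylation, read 1.81-fold lower (log2 change -0.86, adjusted p = 0.00421). Bak1, the effector that shares the role of Bax, had a log2 change of -0.72 and was not called (adjusted p = 0.425). Bid, the BH3-only link to death receptors, was at 0.08 (adjusted p = 0.738), and Bok, Bik, Hrk, Bcl2l2 and Bcl2a1 were also not called. For Bcl2l2, a pro-survival gene, the brightest probe set, 1393707_at, had a log2 change of 0.46. All its NA16 arrays were above all A16 arrays, but it missed the threshold (adjusted p = 0.0517). The other Bcl2l2 probe set, 1369611_at, was at -0.13. The list median was 0.00, beside -0.02 over all probe sets.

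Downstream of the mitochondria the calls went both ways. Of 9 apoptosome and caspase genes measured, 3 were called higher and 2 lower, with a median log2 change of -0.06. The fit with 1 probe set per gene called 3115 of 14217 genes higher and 2409 lower. Casp6, an executioner caspase, was 1.71-fold higher (adjusted p = 0.00462), Apaf1, the scaffold of the apoptosome, 1.46-fold higher (adjusted p = 0.0277) and Casp9, the caspase it activates, 1.35-fold higher (adjusted p = 0.0330). Only 1 of the 3 Casp9 and 1 of the 2 Apaf1 probe sets passed, and both calls were lost in the PLIER columns (adjusted p = 0.0513 for Apaf1 and 0.0710 for Casp9). Aifm1, a flavoprotein of the mitochondrial intermembrane space, read 9.34, 9.23 and 9.32 on the NA16 arrays, against 10.96, 10.86 and 10.66 on the A16 arrays, a 2.94-fold fall (log2 change -1.56, adjusted p = 0.000526). Htra2, a protease of the same compartment, was 1.98-fold lower (adjusted p = 0.00357). Of 5 caspase inhibitors, Birc3 (1.91-fold, adjusted p = 0.00213) and Birc2 (1.57-fold, adjusted p = 0.00721) were higher and Birc5, survivin, which also serves in mitosis, 2.01-fold lower (log2 change -1.01, adjusted p = 0.00143).

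Of 13 measured partners that bind or turn over the members, 2 were called higher and 1 lower, with a median of 0.00. In the fit with 1 probe set per gene, 3115 of 14217 genes were called higher and 2409 lower. Vdac1, a channel of the outer mitochondrial membrane, was 1.62-fold higher (adjusted p = 0.0104) and Tmbim6, known as Bax inhibitor 1, 1.38-fold higher (adjusted p = 0.0188). The Tmbim6 call was lost in the PLIER columns (adjusted p = 0.0689), and its other probe set was not called, at -0.09. Huwe1, a ubiquitin ligase for Mcl1, was 1.56-fold lower (adjusted p = 0.0107). Dynll2, the light chain that holds Bmf, had a log2 change of 0.00 (adjusted p = 0.992) by its brightest probe set. Its other probe set, 1387782_at, was at -0.37 with all NA16 arrays below all A16 arrays, and was not called (adjusted p = 0.0980). The probe sets of Usp9x, a deubiquitinase for Mcl1, disagreed, with a called rise of 0.98 for 1391145_at and a called fall of -0.54 for 1372121_at.

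Genes of mitophagy, the process that Bnip3 and Bnip3l serve, were mostly called higher. Of 8 measured, 5 were called higher and 1 lower, with a median log2 change of 0.96. Among all 14217 genes, 3115 were called higher and 2409 lower in the fit with 1 probe set per gene. Gabarapl1, an ATG8 protein to which Nix binds, read 11.95, 12.17 and 12.12 on the NA16 arrays, against 9.36, 9.58 and 9.27 on the A16 arrays, a 6.29-fold rise (log2 change 2.65, adjusted p = 0.000364). The receptor Optn was 3.46-fold higher (adjusted p = 0.000410), the kinase Pink1 2.40-fold (adjusted p = 0.00240) and the receptor Sqstm1 2.27-fold (adjusted p = 0.00115). Of the other Sqstm1 probe sets, 1389381_at was also called higher, at 0.99, while 1371220_at (-0.06) and 1371221_at (0.05) were not called. Gabarap was 1.68-fold higher by its brightest probe set (adjusted p = 0.0142) and called lower by the other, at -0.56. Phb2, an inner membrane receptor, was 1.62-fold lower (adjusted p = 0.00927), and Fundc1 was not called (log2 change 0.22, adjusted p = 0.356).

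Known transcription regulators of the members included several large rises. Of 14 measured, 6 were called higher and 1 lower, with a median of 0.40. Among all 14217 genes, 3115 were called higher and 2409 lower in the fit with 1 probe set per gene. Ddit3 (CHOP), a stress factor that induces Bcl2l11 and represses Bcl2, read 13.66, 13.50 and 13.51 on the NA16 arrays, against 10.58, 10.48 and 10.58 on the A16 arrays, an 8.07-fold rise (adjusted p = 0.000240). Its partners in the stress response, Trib3 and Atf4, were 4.13-fold (adjusted p = 0.000408) and 2.04-fold higher (adjusted p = 0.00323). Foxo3, an activator of Bcl2l11 and Bbc3, read 10.53, 11.09 and 11.53 on the NA16 arrays, against 8.35, 8.77 and 8.58 on the A16 arrays with probe set 1376593_at, a 5.42-fold rise (adjusted p = 0.000408). Its other probe sets were not called, at 0.42 and -0.04. Egr1 was 4.56-fold higher (adjusted p = 0.000429) and Hif1a 1.46-fold (adjusted p = 0.0112), while Myc was 1.47-fold lower (adjusted p = 0.0111) and Foxo1 was not called (log2 change 0.39, adjusted p = 0.0524).

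**Figure D5:**
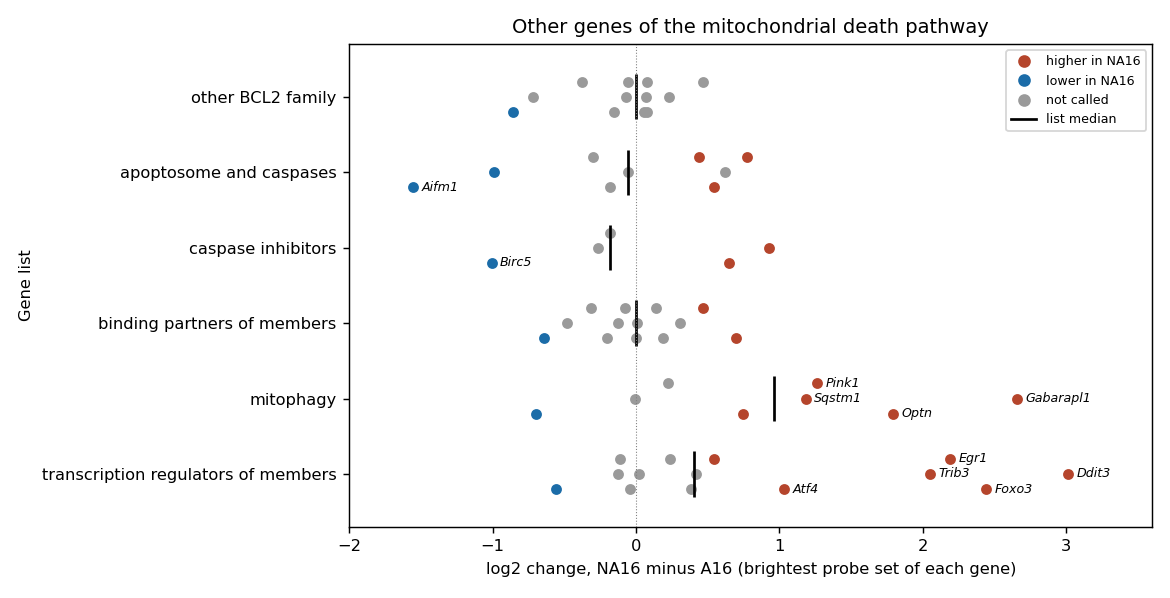
Log2 change of NA16 minus A16 (x axis) for the brightest probe set of each measured gene in 6 lists (y axis), coloured by call, with list medians as vertical lines and names for called genes that changed at least 2-fold. Mitophagy genes have a median of 0.96 and further BCL2 family genes a median of 0.00.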

How the data were processed

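The authors read the scans with GeneChip Operating Software 2.1, and the Avadis program (version not given in the sources used here) applied RMA and PLIER. The deposited values are linear intensities with a column for each algorithm, so 12 columns came from 6 arrays, and log2 was taken here. PLIER served as an alternative. RMA makes the arrays' distributions alike and combines a probe set's probes, so a change shared by all genes cannot be seen. No RMA intensity lay below 16, with array minima between 16.05 and 17.57, and in the PLIER columns the minimum was 16.00 on every array. A floor of that kind shrinks the changes of dim probe sets. Detection calls were not used. In the labels the array of biological replicate 1 is also technical replicate 1, so technical replicate 2 was counted with it, although its parent is not named. Separate cultures are not named either, so the p-values reflect sample-to-sample spread that may be technical in origin.

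Log2 intensities of all 31042 probe sets that were not controls entered a linear model with moderated variances (limma 3.58.1, R 4.3.3), with 2 residual and 3.75 prior degrees of freedom. Of these, 20826 had 1 symbol, 436 several and 9780 none here. Entrez identifiers matched 20758 of the first to RefSeq (GRCr8), which changed 0 symbols. The model was tested on simulated data of 31042 probe sets and 2 against 2 replicates. It found 0.896% of true 1.5-fold changes, 34.5% at 2-fold and 93.8% at 4-fold, and 5.52% of its calls were false. Few probe sets were changed there, so this is not the power in these data.

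Members and lists were chosen with earlier results of these data known. Named were all member probe sets, up to 5 called genes per list with at least 2-fold change, and the 3 nearest profiles per role. Other genes of the lists are named as called members of a small count, as probe sets that disagree or for their role beside a member, chosen after their values were seen. Promoter windows and their motif matches came from the RefSeq table (GRCr8), which held 9 windows for 6 of the 8 measured genes. Alternatives covered the algorithm, the technical arrays, the variance model, dim probe sets, the offset, scaling, pairing, single replicates, the methods' t-test, and 1 or all probe sets per gene.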

Additional observations from a re-analysis of the deposited data

How the results depend on the processing

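With 2 replicates a state the precision is limited, and dim probe sets sit close to the floor of the scale. In 209 of 240 combinations of a member probe set and an alternative the direction and the side of the threshold were kept, counting as kept those uncalled in both fits. Among 99 of these, the sign of an uncalled change differed in 5, all of them for Mcl1 1370141_at (-0.29 to 0.47 over the alternatives) or Bcl2l1 1369180_at (-0.25 to 0.05). No called member changed sign. The cause was not tested where a call moved.

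The methods' t-test called 0 probe sets after adjustment (0 higher and 0 lower among members and lists), against 4060 higher and 3963 lower at an unadjusted p below 0.05, where 5 members were higher and 0 lower. So all called members lost their call after adjustment at unchanged log2 changes (Bcl2 -0.61, Bcl2l11 1.40 and 2.78, Bbc3 1.35, Bnip3 2.74, Bnip3l 1.13 and 0.71), and Bcl2 (-0.61) and Bnip3l 1386978_at (0.71) missed the unadjusted threshold too. Member probe sets called lower (1) were 0 in the PLIER columns, where Bcl2 was at -0.33, and 0 with technical arrays left out (Bcl2 -0.58). Leaving these arrays out also left 7 listed probe sets lower (11), with 3369 of all probe sets higher and 3057 lower. With every array as its own replicate 19 listed probe sets were lower, and Mcl1 1372520_at (0.30), Bcl2l11 1370787_at (0.41) and Bmf (1.10) were called. Of all probe sets 5356 were higher and 5047 lower in that fit. With technical replicate 2 averaged with biological replicate 2, 2 members were lower, and Bcl2l1 1370485_a_at (-1.03) and Bmf (1.02) were called. Over all probe sets 4454 were then higher and 4176 lower. The variance trend called Bcl2l11 1370787_at (0.46). With 1 probe set per gene Bmf (1.06) was called, with 7 listed and 2409 of all genes lower, and the mean of a gene's probe sets left 14 listed genes higher and 2890 and 2442 of all genes higher and lower (4429 and 4098 probe sets). Calls of at least 2-fold numbered 0 members lower, 13 and 2 listed, and 1667 and 1508 in all.

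The labels give both states replicate numbers 1 and 2 but do not say that a number marks a shared day or culture, and same-numbered replicates deviated together (r = 0.535 over all probe sets, 2 pairs). With the replicate block 8 members were higher and 3 lower, 20 listed probe sets were lower, and 6008 higher and 5865 lower in all. Bcl2l1 1370485_a_at (-1.10) and 1370812_at (-0.53), Bcl2l11 1370787_at (0.46) and Bmf (1.06) gained a call at unchanged changes.

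Leaving out 1 replicate with all its arrays assumes that the lone sample of a state varies like the other state. Changes then ranged from -0.72 to -0.49 (Bcl2), -1.84 to -0.36 (Bcl2l1 1370485_a_at), -0.93 to -0.14 (1370812_at), 0.31 to 0.62 (Bcl2l11 1370787_at), 0.59 to 1.53 (Bmf) and 0.52 to 0.89 (Bnip3l 1386978_at). Counts of calls from these fits, which leave 1 sample in a state, are not given. In NA16 the technical array correlated best with biological replicate 2 (r = 0.997) and in A16 with biological replicate 1 (r = 0.997). Averaged so, an alternative chosen after seeing the data, 6 members were higher and 1 lower. Over all probe sets 3732 were then higher and 3463 lower, against 4429 and 4098 in the reported fit.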
